A study of Sus scrofa with 30 samples.

Results

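miR-205 and miR-203 are small RNAs known from epithelia, and 16 sequences of them, 1.83% of the annotated sequences that the study counted, were found in the porcine endometrium. The members were chosen by name, as every sequence of the study's annotated list whose name has the root mir-205 (3 sequences) or mir-203 (11 of miR-203a and 2 of miR-203b), and each was counted by exact match in the deposited reads. Of the 77077105 reads of the listed sequences, miR-205 took 2123, miR-203a 83237 and miR-203b 1337. The list itself rests on measured values, because it holds only sequences with at least 10 reads in at least 4 libraries (3 in CD12) of 1 or more groups. Canonical miR-205 met that minimum only through CD16 and CD20 and its shortened form only through CD12 and CD20, so a higher level in those cyclic groups was part of how they came onto the list. In the same way, 1 miR-203a sequence is listed only through PD12, 2 only through PD20, and 1 miR-203b sequence only through CD12. Both miRNAs were also selected for description with the D20 difference of miR-205 already known from these data.

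The libraries were made from the endometrium of Hampshire x Duroc gilts of 1 herd, aged 7 to 8 months, each from 1 animal. Pregnant (P) gilts had been inseminated and were sampled on day (D) 12, 16 or 20 (5 PD12, 5 PD16 and 6 PD20 libraries), and cyclic (C) gilts on the same days of the estrous cycle (4 CD12, 5 CD16 and 5 CD20). Pregnancy was accepted with at least 4 conceptuses, and uteri of D12 and D16 were flushed with saline before sampling. The PD20 libraries alone stem from implantation sites, cleared of conceptus tissue beforehand. The place sampled thus differed between PD20 and the other groups and cannot be told apart from status on that day. Libraries held between 2029729 and 6402731 reads, which left 4 to 288 reads of miR-205 per library (median 40.5), 679 to 17612 of miR-203a (median 1498) and 11 to 130 of miR-203b (median 36.5).

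A mature miRNA guides an Argonaute protein to complementary sites in mRNA, and pairing rests mainly on its seed, bases 2 to 8. A change at the 5' end (5' ADD or 5' DEL, an added or missing base) moves the seed, whereas a change at the 3' end (3' ADD or 3' DEL) leaves it as it was. miR-205 is known as a miRNA of stratified and glandular epithelia that, with the miR-200 family, represses the ZEB transcription factors of epithelial-mesenchymal transition. miR-203 is best known from the skin, where it promotes keratinocyte differentiation by repressing p63.

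The 3 miR-205 sequences share 1 seed, shown in capitals, and differ only in where they end. They are given because the D20 comparison turns on them.
miR-205 3' DEL 1: tCCTTCATtccaccggagtct
miR-205 canonical: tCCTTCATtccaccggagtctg
miR-205 3' ADD 1 (T): tCCTTCATtccaccggagtctgt
No other listed sequence carried this seed. The longest form was the most abundant, with 64.3% of the 2123 reads of the 3, against 19.8% for the canonical and 15.8% for the shortened form.

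The miR-203a sequences fall into 3 seeds, each shown by 1 sequence with the same 3' end, and miR-203b carries another.
miR-203a canonical: gTGAAATGtttaggaccactag
miR-203a 5' DEL 1: tGAAATGTttaggaccactag
miR-203a 5' ADD 1: tGTGAAATgtttaggaccactag
miR-203b canonical: tTGAACTGttaagaaccactgg
The canonical seed was carried by 5 of the 11 miR-203a sequences, the seed moved by 1 base by 4 (5' DEL 1) and that of the 5' ADD 1 form by 2. Canonical miR-203a and miR-203b differ at 5 of 22 bases aligned from the 5' end, 1 of them in the seed. miR-205 was annotated in the pig, and the miR-203 sequences were named after other mammals.

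Levels are given as normalized reads, that is CPM over the annotated sequences, scaled by the TMM factors of edgeR. Intervals and bounds cover counting error only. Canonical miR-205 was nearly absent from PD20, where the lowest, median and highest of the 6 libraries were 0, 0.174 and 1.77 normalized reads (0 to 3 reads). In CD20 it stood at 10.6, 10.2, 15.8, 7.24 and 21.9 in replicates 1 to 5 (13 to 46 reads). All 5 CD20 libraries were therefore above all 6 PD20 libraries, with means of 0.467 ± 0.696 (SD, n = 6) and 13.2 ± 5.78 (n = 5). Because no PD20 library exceeded 3 reads, the fold is a bound, at least 11.02-fold lower when 3 reads per library are put in their place.

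The other forms of miR-205 showed the same separation on D20. The 3' ADD 1 form had 22.3, 27.5, 31.7, 23.4 and 53.8 normalized reads in the CD20 replicates and a lowest, median and highest of 1.25, 1.89 and 10.6 in PD20. The 3' DEL 1 form had 7.95, 9.52, 6.05, 11.7 and 14.3 in CD20 and 0.415, 1.21 and 2.01 in PD20. Neither form overlapped between the groups.

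**Figure D1:**
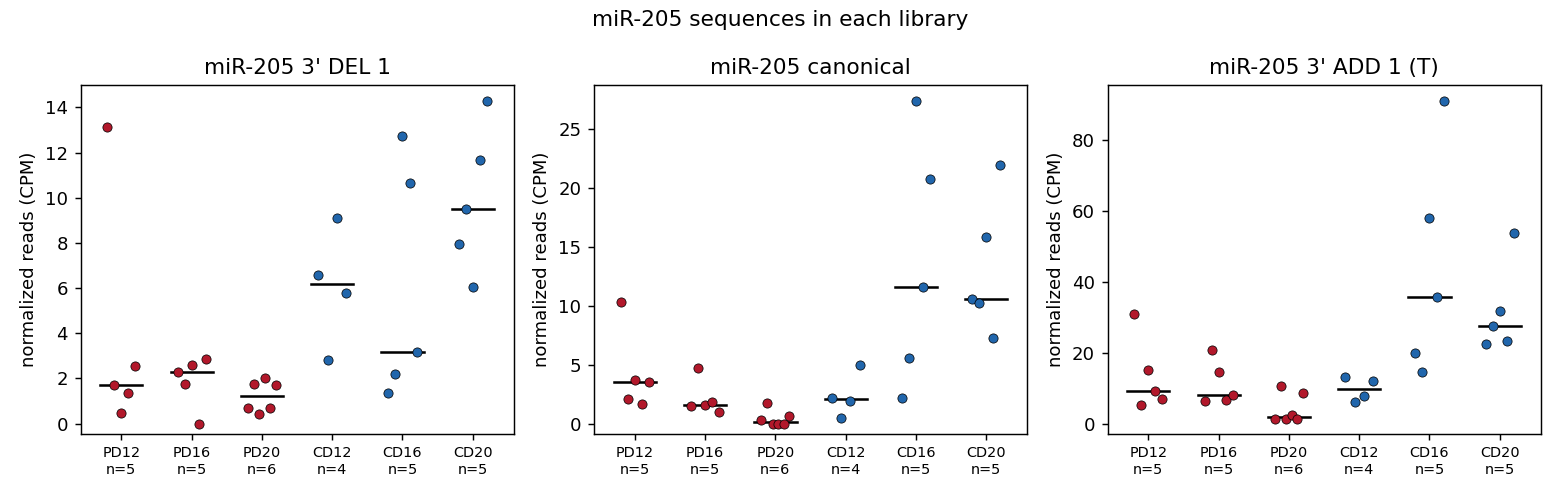
Normalized reads (CPM, linear axis) of the 3 miR-205 sequences in each library, with pregnant groups in red, cyclic groups in blue and a black line at the median of each group. In every panel the PD20 points lie below all CD20 points, and PD12 replicate 1 stands above the rest of its group.

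Differences were tested over the whole annotated list by the edgeR quasi-likelihood test. A difference counts as called where its p, adjusted by Benjamini-Hochberg, is below 0.05 and its log2 fold change (log2FC) exceeds 1 in either direction. On PD20 vs. CD20 all 3 miR-205 sequences were called lower, where 1.49% of all sequences were called, 0.802% were called lower and 2.18% had lower groups that did not overlap. The log2FC was -4.86 for the canonical sequence (SE 0.680, adjusted p = 0.00159), -2.96 for the 3' DEL 1 form (SE 0.454, adjusted p = 0.00248) and -2.92 for the 3' ADD 1 form (SE 0.559, adjusted p = 0.0128). Since the miRNA was chosen with this difference known, and 2 of its forms are on the list only through cyclic groups, these values describe the difference and are no independent evidence of it. Each of the 3 was called in all 11 fits that left out 1 library, where the share called of all sequences ran from 0.573% to 13.3%. That share was 13.3% without PD20 replicate 4, 11.9% without CD20 replicate 4 and 6.76% without CD20 replicate 5, and at most 1.37% in the other 8 fits. It was 0.573% without PD20 replicate 5 or 6 or CD20 replicate 1 or 2, and 0.687% without PD20 replicate 3.

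The libraries of the cycle gave the highest levels of miR-205. Summed over its 3 sequences, the medians ran from CD16 (57.9 normalized reads) and CD20 (47.2) through CD12 (20.3), PD12 (13.1) and PD16 (11.9) to PD20 (3.40). CD20 and CD12 did not overlap in this order, with 40.9 as the lowest CD20 and 22.7 as the highest CD12 library, whereas every other pair of neighbours did. With all 104 deposited sequences that hold a 15-base core of miR-205 in place of the 3, the medians of CD20 and PD20 were 81.1 and 8.72 and the groups again did not overlap (66.3 to 136 and 3.91 to 22.8).

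Within the cycle, the canonical and 3' ADD 1 forms of miR-205 had higher values on later days without passing the test. The 3' ADD 1 form had 13.1, 6.15, 7.65 and 11.95 normalized reads in CD12, against 19.9, 14.4, 58.0, 35.7 and 90.9 in CD16. Every CD16 library was above every CD12 library, although the CD16 animals differed among themselves by 6.31-fold. Its log2FC was 2.27 for CD16 vs. CD12 (SE 0.547) and 1.69 for CD20 vs. CD12 (SE 0.538), and the joint test of both days gave an adjusted p of 0.121 in edgeR. Canonical miR-205 had a log2FC of 2.60 (SE 0.714) and 2.47 (SE 0.712) in the same contrasts, with the same adjusted p of 0.121, but it is on the list only through CD16 and CD20, so that its higher values there are a description. The 3' DEL 1 form had 0.05 (SE 0.598) and 0.69 (SE 0.593), with an adjusted p of 0.572, and its groups overlapped. Groups did not overlap for the 3' ADD 1 form on either day and for the canonical sequence on CD20 vs. CD12, where 2.63% (CD16) and 2.86% (CD20) of all sequences had higher groups without overlap. None of the 16 sequences was called in these comparisons, against 0.115% of all sequences for CD16 vs. CD12 and 0.458% for CD20 vs. CD12. Of the 16, 4 had an unadjusted p under 0.05 in the joint test, as did 23.9% of all sequences. These were 2 of miR-205, higher on both later days, and 1 each of miR-203a and miR-203b, lower on both. The miR-203b sequence, its 3' ADD 1 form, is on the list only through CD12. DESeq2 called 2 in each contrast, both miR-205, against 5.84% (CD16) and 6.41% (CD20) of all sequences. On CD20 vs. CD16 edgeR and DESeq2 called 0 of the 16, where they called 0.458% and 8.59% of all sequences, and 0 of them had an unadjusted p under 0.05, against 21.2% of all.

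During pregnancy the values were lower on D20, again without passing the test. Canonical miR-205 had 10.3, 2.06, 3.70, 1.70 and 3.53 normalized reads in PD12 and 1.52, 4.72, 1.55, 1.86 and 0.952 in PD16. Those groups overlapped, and PD12 replicate 1 was the only library of pregnancy above 5 normalized reads. With 3 reads per library put in place of the PD20 counts, PD20 was at least 3.57-fold lower than the PD12 mean, which includes the high replicate 1. The 2 groups overlapped, with 1.70 as the lowest PD12 and 1.77 as the highest PD20 library. The fitted log2FC, which is no bound, was -3.25 (SE 0.760), with an adjusted p of 0.0706 in the joint test of edgeR, and it was -2.63 without PD12 replicate 1. None of the 16 sequences was called on PD20 vs. PD12, PD16 vs. PD12 or PD20 vs. PD16, where 0.802%, 0.229% and 0.573% of all sequences were called. An unadjusted p under 0.05 was found for 9 of the 16 in the joint test (18.7% of all sequences) and for 7 on PD20 vs. PD16 (14.2%). The 9 were 2 of miR-205 and 7 of miR-203a. Among those of miR-203a, the 5' ADD 1 form is listed only through PD12. The 5' ADD 1, 3' ADD 1 (A) and 5' DEL 1, 3' DEL 1 forms are listed only through PD20. The 7 on PD20 vs. PD16 were 2 of miR-205, which were lower in PD20, and 5 of miR-203a, which were higher. The 5' ADD 1, 3' ADD 1 (A) form is among these 5, so that its higher value in PD20 was part of how it was chosen. DESeq2 called 2, 4 and 0 of the 16 on PD20 vs. PD12, PD16 vs. PD12 and PD20 vs. PD16, and 5.27%, 2.86% and 1.72% of all sequences. In each of the first 2 comparisons 1 of those called was miR-205, and the others (1 and 3) were miR-203a. These calls used the p of both days jointly, so a call on 1 day can rest on the other. In edgeR canonical miR-205 had a joint p of 0.00155, but 0.167 in the single contrast of PD16 vs. PD12. The 5' ADD 1 form of miR-203a, listed only through PD12, had 0.00893 jointly and 0.114 in the single contrast of PD20 vs. PD12.

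On D12 no difference between P and C passed the test. Canonical miR-205 had 2.19, 0.512, 1.91 and 4.95 normalized reads in CD12, within the range of PD12 but for 1 library, and a log2FC of 0.88 (SE 0.705, adjusted p = 0.776 in edgeR). No member was called on D12 (0% of all sequences), 0 of the 16 had an unadjusted p under 0.05 (6.08% of all) and DESeq2 called 0. On D16 it had 2.15, 5.55, 27.4, 11.6 and 20.7 in CD16, so that 4 of 5 cyclic libraries lay above all of PD16. The log2FC on PD16 vs. CD16 was -2.71 (SE 0.655, adjusted p = 0.212 in edgeR), and the 3' ADD 1 and 3' DEL 1 forms had -1.997 and -1.65. Again no member was called (0% of all sequences), but the unadjusted p was under 0.05 for 3 of the 16 (10.9% of all), the 3 miR-205 sequences, and DESeq2 called 2 of them and 0.803% of all. Canonical miR-205 was among the 2, and it is on the list only through CD16 and CD20, so that its D16 values are a description. The change of the P vs. C difference from D12 to D20 was itself called for 1 sequence of the whole list (0.115%), canonical miR-205, with a log2 difference of -5.75 (SE 1.07, adjusted p = 0.00616 in edgeR). This value too was known when the miRNA was chosen, and it is a fitted value that rests on the few reads of PD20. With replicate number as a block, although the labels do not pair animals by number, it was as large (-5.82) and the adjusted p was 0.0570 in edgeR. In that test 4 of the 16 had an unadjusted p under 0.05 (16.4% of all). The change from D16 to D20 was called for 0 of the 16 (2.41% of all) with 1 at an unadjusted p under 0.05 (19.1%), that from D12 to D16 for 0 (0%) with 2 (8.13%), and DESeq2 called 0 in both (5.96% and 0% of all). On simulated data the test of the change from D12 to D20 recovered fewer known changes than the tests of 2 groups, so that a missing call says little.

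Because fewer epithelial cells and less of a miRNA per cell cannot be told apart in bulk tissue, both miRNAs were compared with the miR-200 family within each library. The family (miR-200a, miR-200b, miR-200c, miR-141 and miR-429) is a mark of epithelial cells, all 5 members were found, and miR-200c was the most abundant. Its 31 sequences summed to 10309 ± 2402 normalized reads in PD20 (n = 6) and 7678 ± 2231 in CD20 (n = 5), with overlapping ranges. The log2 ratio of canonical miR-205 to the family was -14.5 ± 1.49 in PD20 and -9.21 ± 0.668 in CD20, without overlap, a difference of -5.33 (exact two-sided permutation test, p = 0.00433, adjusted p = 0.0260 over 6 tests, the smallest p that 6 against 5 libraries allow). On D16 the difference was -2.26 (exact permutation p = 0.0159, adjusted p = 0.0476), with overlap. Canonical miR-205 is on the annotated list only through CD16 and CD20, the groups where it was high, so the D16 and D20 values of the ratio are descriptions and no independent evidence. The D16 value kept its direction but not its call with the 3 sequences summed (-1.86, adjusted p = 0.0714, exact permutation), and leaving out 1 library ended the call in 8 of 10 cases (adjusted p of 0.0476 to 0.0779). On D12 it was 0.54 (exact permutation p = 0.571, adjusted p = 0.686). The ratio shares its numerator with the counts above, so the D20 value restates that difference on another scale.

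**Figure D2:**
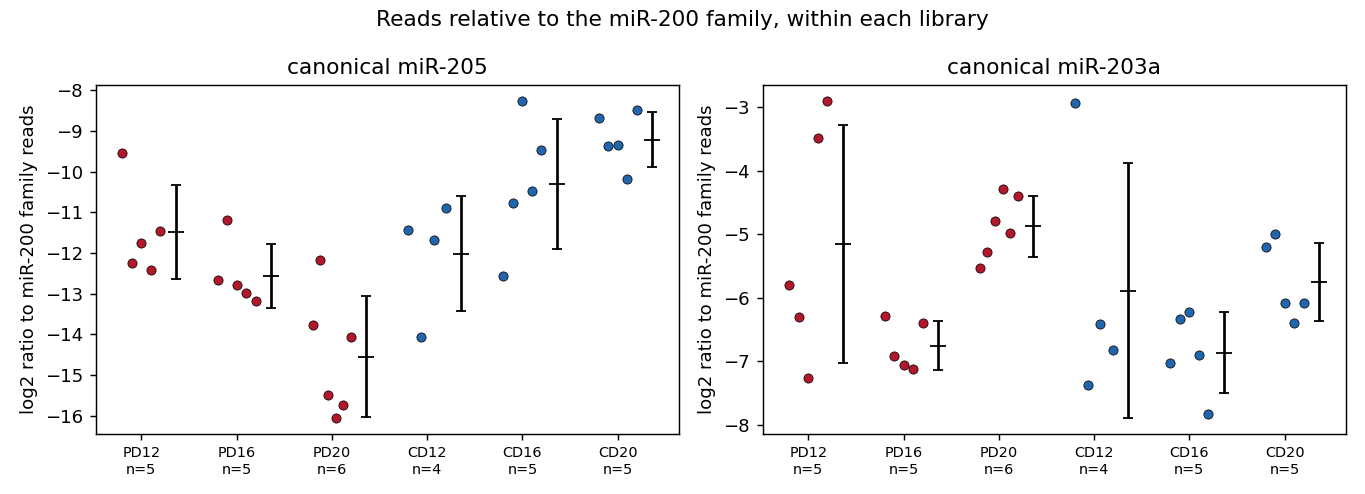
Log2 ratio of canonical miR-205 (left) and canonical miR-203a (right) to the summed reads of the miR-200 family, with 0.5 reads added to the numerator, in each library (pregnant red, cyclic blue) with mean ± SD beside the points. For miR-205 PD20 lies below CD20 without overlap, and for miR-203a PD20 lies above CD20 with overlap.

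miR-203a was far more abundant than miR-205, and on D20 its values lay on the other side, higher in P than in C. Canonical miR-203a had 119, 214, 153, 103 and 118 normalized reads in the CD20 replicates, and a lowest, median and highest of 158, 325 and 687 in PD20. Only CD20 replicate 2 lay inside the PD20 range. The log2FC was 1.45 (SE 0.397), with an adjusted p of 0.0581 in edgeR, which misses the threshold. All 11 miR-203a sequences had a positive log2FC, from 0.82 to 1.46 (median 1.18, against -0.03 over the whole list), although 2 of the 11 (5' ADD 1, 3' ADD 1 (A) and 5' DEL 1, 3' DEL 1) are on the list only through PD20, so that their direction was partly set by how they were chosen. Of the 11, 7 had an unadjusted p under 0.05, where 28.5% of all sequences had one and 13.3% had one and were higher. None was called by edgeR, against 0.687% of all sequences called higher. DESeq2 called 3 of the 11 and the likelihood ratio test 2, where these tests called 15% and 14.2% of all sequences. These 11 sequences share most of their bases and varied together (pairwise Pearson r of 0.62 to 0.97 over 30 libraries, median 0.80), so they are not 11 separate observations.

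PD20 replicate 1 stood apart from its group. Its stroma and smooth muscle list (miR-143, miR-145, miR-199a, miR-199b and miR-214) summed to 639415 normalized reads, against 79586 to 141034 in the other PD20 libraries, and its striated muscle list to 40186. It also had the lowest canonical miR-203a of PD20 (158). Without it the log2FC of canonical miR-203a on PD20 vs. CD20 was 1.61 with an adjusted p of 0.0479 in edgeR, past the threshold. The part of muscle or stroma in this value was not tested. Relative to the miR-200 family, canonical miR-203a was higher in PD20 by 0.88 on the log2 scale (exact permutation p = 0.0390, adjusted p = 0.0779), with overlap.

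The levels of miR-203a on D12 were set by a few animals. Summed over its 11 sequences it had 524, 635, 555, 2877 and 5647 normalized reads in PD12, and 3202, 384, 491 and 397 in CD12. PD12 replicates 4 and 5 and CD12 replicate 1 were thus each several times above the other libraries of their groups. Canonical miR-203a followed the same animals, with 139, 136, 87.3, 902 and 1393 in PD12. The miR-200 family did not, since PD12 replicates 4 and 5 had 10128 and 10381 normalized reads of it and the other PD12 libraries between 7801 and 13486. The cause of the high levels was not tested.

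**Figure D3:**
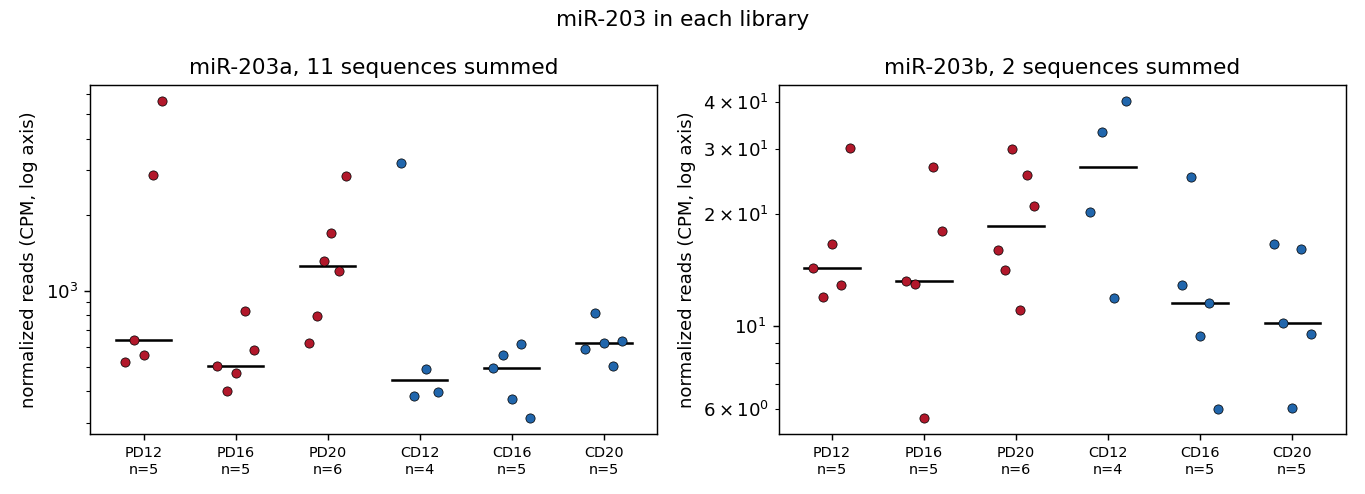
Normalized reads (CPM, log axis) of the 11 miR-203a sequences (left) and the 2 miR-203b sequences (right) summed in each library, pregnant red and cyclic blue, with a black line at the group median. For miR-203a, 2 PD12 libraries and 1 CD12 library stand far above the others of D12, while PD16 lies between 400.3 and 829.9.

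The comparisons of miR-203a with D12 depended on these libraries. On PD16 vs. PD12 all 11 sequences had a negative log2FC (median -1.93, against 0.05 over the whole list) and 7 had an unadjusted p under 0.05 in the joint test (18.7% of all sequences), with adjusted p of 0.139 or more in edgeR. The 5' ADD 1 form, with the largest fold of the 11 (-3.01), is on the list only through PD12, where it was high. Also among the 7 are the 5' ADD 1, 3' ADD 1 (A) and 5' DEL 1, 3' DEL 1 forms, listed only through PD20, which the joint test includes. Canonical miR-203a had -2.11 (SE 0.624). Without PD12 replicates 4 and 5, CD12 replicate 1 and PD20 replicate 1 the same value was 0.00282, and 6 of the 11 sequences changed direction. By medians, canonical miR-203a went from 139 in PD12 to 118 in PD16. In CD16 vs. CD12 its log2FC of -1.32 turned to 0.57 without CD12 replicate 1. The direction of the difference between PD20 and PD16 did not rest on those libraries, but whether it passed the test did. Canonical miR-203a had 142, 96.7, 95.5, 118 and 131 normalized reads in PD16, all below the lowest PD20 library, where 1.15% of all sequences had higher groups without overlap. Its log2FC was 1.66 (SE 0.599, adjusted p = 0.243 in edgeR), and 1.85 without the 4 libraries named (adjusted p = 0.0129). That set of libraries was chosen after their values were seen, 3 of the 4 for their level of miR-203a.

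miR-203b, the minor relative, had fewer reads than miR-203a. Its 2 sequences summed to 20.3, 33.3, 12.0 and 40.4 normalized reads in CD12 and 16.7, 10.2, 6.05, 16.1 and 9.52 in CD20. The 3' ADD 1 form had a log2FC of -1.50 for CD20 vs. CD12 (SE 0.525), with an adjusted p of 0.142 in edgeR's joint test. It is on the list only through CD12, where it was high, so that this value is a description. In PD20 vs. CD20 the canonical form had 0.82 (SE 0.401, adjusted p = 0.186). No miR-203b sequence was called in any comparison or alternative.

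**Figure D4:**
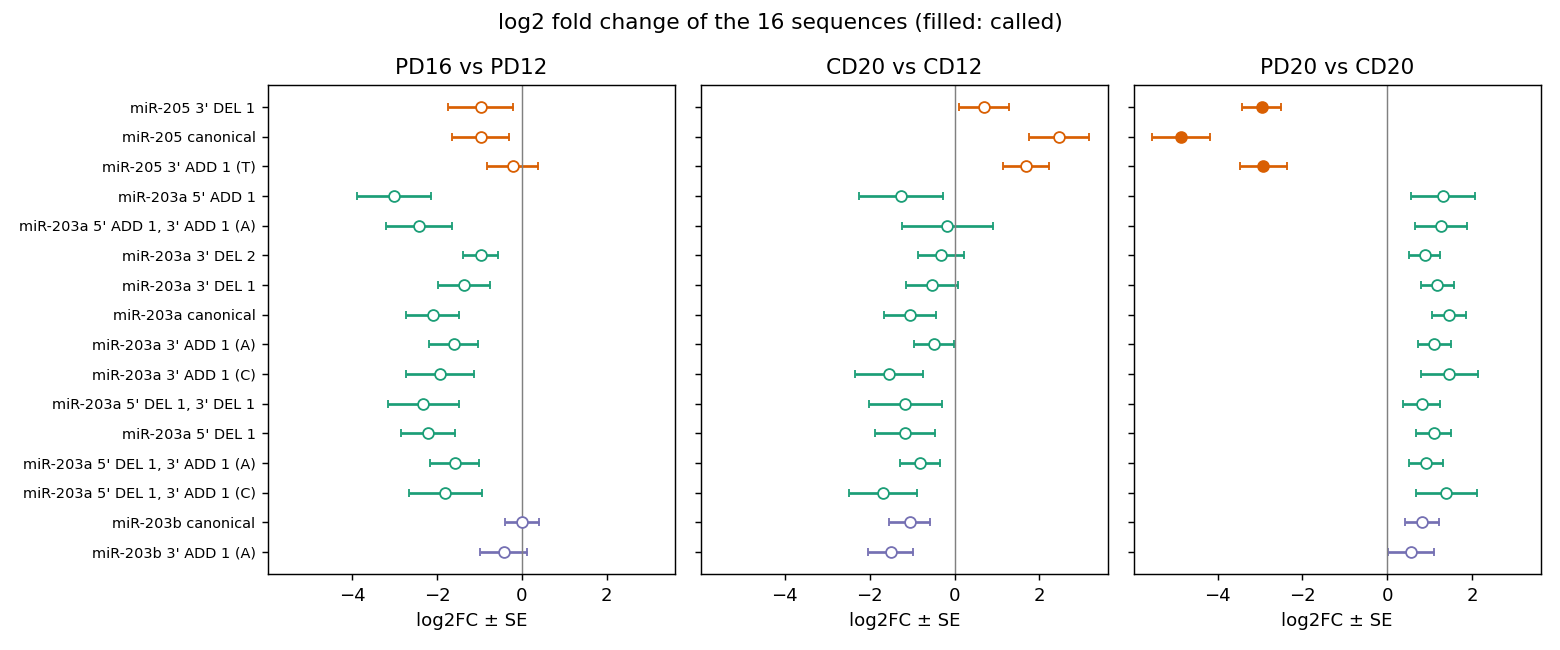
Log2FC ± SE of the 16 sequences from the edgeR fits for PD16 vs. PD12, CD20 vs. CD12 and PD20 vs. CD20 (miR-205 orange, miR-203a green, miR-203b purple), with filled points for called sequences. In PD20 vs. CD20 the 3 miR-205 sequences lie left of zero and the 13 miR-203 sequences right of it, and only the former are called.

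A large part of miR-203a carried a shifted seed. In each library, between 36.1% and 49.3% of the reads of the 11 sequences (median 42.6%) did not start where the canonical sequence starts, nearly all of them as 5' DEL 1 forms. Over all deposited sequences with the miR-203a core, which include an abundant 5' DEL 1 form outside the list, the share was 43.9% to 64.6% (median 53.6%). The values that follow are those of the 11 sequences unless stated. In PD20 the lowest, median and highest were 36.1%, 38.9% and 41.1%, and the PD12 replicates had 41.9%, 41.5%, 48.1%, 41.7% and 43.8%. PD20 was lower than PD12 without overlap, with a difference of -4.68 percentage points (exact two-sided permutation p = 0.00433, adjusted p = 0.0390 over 9 tests), and lower than PD16 with overlap, at -3.71 points (exact permutation p = 0.00866, adjusted p = 0.0390). PD20 vs. CD20 gave -4.46 points (adjusted p = 0.0649, exact permutation). Neither call held when the 3' end was fixed or when all 531 deposited sequences with the miR-203a core were used. With the canonical 3' end only, PD20 vs. PD12 gave -5.03 points (adjusted p = 0.156, exact permutation), and with all deposited sequences -5.14 points (adjusted p = 0.195). PD20 vs. PD16 gave -2.18 points (adjusted p = 0.443, exact permutation) and -3.17 points (adjusted p = 0.253) in the same settings. Leaving out 1 library ended the call in 5 of 11 cases for PD20 vs. PD12 and in 9 of 11 for PD20 vs. PD16 (adjusted p of 0.0357 to 0.0714, exact permutation). Of the shifted sequences, the 5' ADD 1 form (0.509% of the reads of the 11) is on the list only through PD12. The 5' ADD 1, 3' ADD 1 (A) form (0.261%) and the 5' DEL 1, 3' DEL 1 form (0.470%) are on it only through PD20.

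The list left out the most abundant miR-203 sequence of the files. It is the 5' DEL 1 form with a T after the canonical 3' end, shown beside the listed forms that end in A or C at the same place.
miR-203a 5' DEL 1, 3' ADD 1 (T): tGAAATGTttaggaccactagt
miR-203a 5' DEL 1, 3' ADD 1 (A): tGAAATGTttaggaccactaga
miR-203a 5' DEL 1, 3' ADD 1 (C): tGAAATGTttaggaccactagc
The T form had 26448 reads and was present in all 30 libraries, against 18591 reads for A and 3385 for C. It averaged 375 ± 298 normalized reads in PD20 (n = 6) and 149 ± 68.3 in CD20 (n = 5). Of the 133453 reads that hold the miR-203a core, 62.4% fell on the 11 listed sequences. For miR-205 the share was 59.2% of 3588 reads and for miR-203b 48.3% of 2769.

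The base after the canonical 3' end differed with the 5' end. Among the reads that start at the canonical base and run past the canonical 3' end, T followed in 5.21% to 27.2% (median 16.1%) and A in a median of 81.4%. Among the 5' DEL 1 reads T followed in 23.3% to 71.7% (median 51.9%). In all 30 libraries the T share was higher with the shorter 5' end, by 12.1 to 48.5 percentage points (median 35.9). The 2 kinds of read come from the same libraries. No precursor sequence was used here, so which of these bases is encoded in the genome was not determined.

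**Figure D5:**
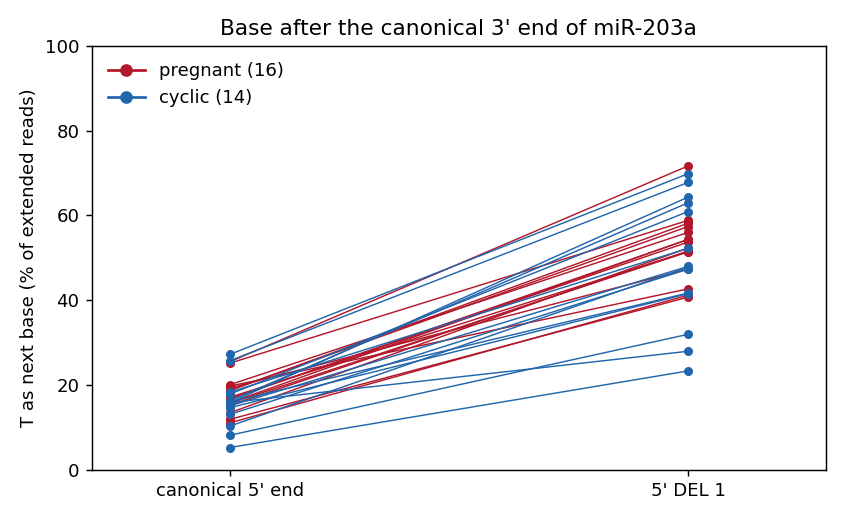
Percent of miR-203a reads running past the canonical 3' end in which the next base is T, for reads with the canonical 5' end and for 5' DEL 1 reads, with 1 line per library (16 pregnant red, 14 cyclic blue). Every line rises from left to right.

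The 3 forms of miR-205 varied together over the 30 libraries (Pearson r of 0.67 to 0.93), whereas between miR-205 and miR-203a sequences r was -0.48 to 0.02 (median -0.25). These correlations describe libraries that share depth and composition. Of 539 other sequences with a mean of at least 10 normalized reads, the most like canonical miR-205 were 1 sequence each of miR-378 (r = 0.55), miR-10a (r = 0.55) and miR-199b (r = 0.53), over 30 libraries. The most like the 3' ADD 1 (A) form of miR-203a, its most abundant listed sequence, were 2 sequences of miR-30a (r = 0.49 and 0.44) and 1 of miR-146b (r = 0.43).

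Marks of other cell types are given for D20, as normalized reads summed over each list. The miR-183 cluster, a second epithelial mark led by miR-182 (3 of 3 found), summed to 7630 ± 4239 in PD20 and 4223 ± 1262 in CD20. The list of ciliated epithelium (2 of 5 found, led by miR-34c) had 5099 ± 2056 and 9282 ± 3267, endothelium (miR-126) 3913 ± 606 and 4604 ± 293, leukocytes (3 of 4, led by miR-142, with miR-223 not found) 110 ± 32.8 and 122 ± 51.7, and erythrocytes (3 of 3, led by miR-451) 2190 ± 1177 and 1076 ± 618. The stroma and smooth muscle list, all 5 found and led by miR-143, had medians of 116489 and 97387, and the striated muscle list, 3 of 5 found and led by miR-1, 3853 and 2054. None of the 5 miRNAs of the embryonic list was matched by name, but 17 annotated sequences carry no miRNA name, and 1 of them is the miR-302 sequence of the study's assay list. It was read in all 6 PD20 libraries, with 2.44, 2.37, 4.57, 39.3, 17.1 and 41.2 normalized reads, in 2 of 5 CD20 libraries, at 0.757 and 0.476, and in none of the other 19. miR-302, a miRNA known from early embryonic cells, was thus above every CD20 library in each PD20 library, in the group where miR-205 was lowest. The part of these cells in the miR-205 and miR-203 differences was not tested.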

How the data were processed

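Per the labels and the methods of the study, the authors joined 2 runs per library, dropped reads with bases of low quality, removed adapters and reads under 17 nt, and collapsed identical reads. The deposited values are raw counts of each distinct sequence, neither aligned nor normalized. Sequences and names were read from the study's list of 873 annotated sequences, and its fold changes and p-values were not used. Counts were joined by exact match. Normalized reads are CPM after TMM scaling (edgeR 4.0.16, R 4.3.3). Groups were compared by the quasi-likelihood F-test, with D16 and D20 tested jointly against D12 within a status and the other contrasts singly. SE is the log2FC divided by the root of F. P-values were adjusted over all sequences tested. Shares and ratios were compared by exact permutation tests (Python 3.11.15), two-sided as scipy defines it. Reads carry no molecular identifiers. The fits and tests were tested on simulated data, where the change of P vs. C between D12 and D20 had low power. A minimum recovery was dropped for such tests after this was seen. Alternatives included DESeq2 1.42.0. Members, lists, tests and named sequences (all members, the 3 most alike, the leading sequence of each marker list) were chosen with earlier results of these data known. The 3 multiplex pools were not assigned to libraries here.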

Additional observations from a re-analysis of the deposited data

Results flagged for a closer look

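Of 132 groups of values examined, 29 held a library whose gap to the nearest other was large for the range of its group, and chance gives about 1 in 20. These came from 9 libraries. CD12 replicate 1 was far above the other CD12 libraries in all 11 miR-203a sequences and their sum, with miR-203a summed (3202 normalized reads), canonical (887), 5' DEL 1 (685), 5' DEL 1, 3' ADD 1 (A) (633), 3' ADD 1 (A) (596), 5' DEL 1, 3' ADD 1 (C) (209), 3' DEL 1 (59.2), 3' DEL 2 (47.1), 3' ADD 1 (C) (33.97), 5' DEL 1, 3' DEL 1 (23.6), 5' ADD 1 (20.8) and 5' ADD 1, 3' ADD 1 (A) (7.12). The forms of miR-203a are not independent of each other. PD20 replicate 6 was highest of its group for the 3' DEL 1 (71.2), 3' ADD 1 (C) (34.4), 5' DEL 1, 3' ADD 1 (A) (643) and 5' DEL 1, 3' ADD 1 (C) (187) forms. PD16 replicate 4 was highest for 3' DEL 1 (27.6), 3' ADD 1 (C) (8.56), 5' DEL 1, 3' DEL 1 (4.47) and 5' DEL 1, 3' ADD 1 (A) (264), and CD16 replicate 4 for 5' ADD 1 (4.64).

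For miR-205, PD12 replicate 1 was far above its group in the canonical (10.3), 3' DEL 1 (13.1) and summed values (54.4), CD20 replicate 5 in the sum (90.0), and PD16 replicate 2 in the canonical sequence (4.72) and its log2 ratio to the miR-200 family (-11.2). For miR-203b the high libraries were CD16 replicate 2 for the 3' ADD 1 (A) form (5.92) and PD12 replicate 5 for the sum (30.1).

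The difference between P and C of canonical miR-205 itself differed between D12 and D20, by -5.75 on the log2 scale in the test of that difference. The most abundant miR-203a sequence outside the annotated list, with 26448 reads in the 30 libraries, is outside the fits of the annotated list.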

How the results depend on the processing

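Of 1825 alternative values for 78 results, 1685 kept their direction and their side of the threshold or, for counts, stayed within 1.5 times. The 3 miR-205 sequences on PD20 vs. CD20 were called under every test and normalization tried, except that a minimum mean of 10 CPM left only 1 of them in the test. Sequences called on PD20 vs. CD20 numbered 6 with DESeq2, 5 with the likelihood ratio test and 1 with that minimum, where these called 15%, 14.2% and 0.871% of all sequences. The share was 11.2% in 1 fit of all 30 libraries, 1.83% with all deposited reads as library size, 1.26% with RLE normalization, 0.573% with the replicate block and 0.261% with all deposited sequences of at least 10 reads. On PD20 vs. PD12 they numbered 2 with DESeq2, 2 with the likelihood ratio test, 1 in 1 fit of all 30 libraries, 1 as a single contrast and 2 with the 4 libraries that stand apart left out (an alternative chosen after seeing the data), which also gave 2 on PD20 vs. PD16 (0.687% of all sequences). All sequences called on PD20 vs. PD12 were 5.27%, 5.27%, 2.06%, 2.86% and 0.573% in that order. The 2 called on PD20 vs. PD12 without the 4 libraries were miR-203a, whose 11 sequences were all lower there in the main fit. Canonical miR-203a turned to higher in PD20 than in PD12, with 0.00282 on PD16 vs. PD12 and 1.85 on PD20 vs. PD16. Calls of D16 and D20 against D12 used the joint p of both days, except in the single contrast. On PD16 vs. PD12 the members called were 4, 3 and 1 with DESeq2, the likelihood ratio test and 1 fit (2.86%, 2.75% and 0.573% of all). On CD16 vs. CD12 and on CD20 vs. CD12 they were 2, 2 and 1 with the same (5.84%, 5.27% and 4.01% of all on CD16 vs. CD12, 6.41%, 5.73% and 5.73% on CD20 vs. CD12), and on PD16 vs. CD16 2 with DESeq2 and 2 with the likelihood ratio test (0.803% and 0.573% of all; 0 to 1 over the fits leaving out 1 library, the 1 without PD16 replicate 1, where 4.13% of all were called). For the change of P vs. C from D12 to D20, 2 were called with DESeq2, the likelihood ratio test or all deposited reads as library size (2.52%, 1.83% and 0.458% of all), 0 with the minimum of 10 CPM (0.546%), which removed canonical miR-205 before the test, 0 with the replicate block (0%), and 1 to 2 leaving out 1 library (0.115% to 0.916%). Canonical miR-203a on PD20 vs. CD20 passed with DESeq2 (log2FC 1.46), the likelihood ratio test (1.45), its sequences summed (1.28) and without the libraries that stand apart (1.61), with 1.22 to 1.66 leaving out 1 library, where it passed without PD20 replicate 1 (1.61) or replicate 4 (1.32). All sequences called were 7.43% when summed, 1.03% without the libraries that stand apart, 1.03% without PD20 replicate 1 and 13.3% without PD20 replicate 4.

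With the replicate block, canonical miR-205 gave -5.82 for the change from D12 to D20 (adjusted p = 0.0570 in edgeR), and the difference in the miR-203a share was -5.16 points on PD20 vs. PD12 and -4.18 on PD20 vs. PD16. With 5 pairs the blocked test of the share cannot go below p = 0.0625 (exact permutation), so that it could not have passed. The labels do not pair animals by number. The deviations of equally numbered libraries correlated between -0.62 and 0.63, and in no comparison did every pair exceed 0.1. Such a rule cannot settle whether some libraries of equal number share a batch, which was not tested. The replicate block changed no other count of called members.

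For the share with a shifted 5' end, PD20 vs. PD12 was -5.03 with the canonical 3' end, -4.11 with A added and -5.14 with all deposited sequences, and -5.17 to -3.51 leaving out 1 library. PD20 vs. PD16 was -2.18, -3.79 and -3.17, and -4.22 to -3.18. Leaving out 1 library ended the call in 5 of 11 cases on PD20 vs. PD12 and 9 of 11 on PD20 vs. PD16. None of these was called with a fixed end or with all sequences. Without a PD20 library the smallest p possible on PD20 vs. PD12 is 0.00794, which is 0.0714 after adjustment when no other test is as small. PD20 vs. CD20 ran from -5.79 to -3.75 and was called without CD20 replicate 1 (-5.79, exact permutation, adjusted p = 0.0286). Differences that missed the threshold and turned were CD16 vs. CD12 (5.91 with the canonical end, 3.19 with all sequences), CD20 vs. CD12 (4.28), CD20 vs. CD16 (-1.62 and -3.84, and -0.656 to 1.58), PD12 vs. CD12 (3.68 and 1.84), PD16 vs. CD16 (1.71 with A added, -1.40 to 0.0409) and PD16 vs. PD12 (-1.45 to 0.200). For these and the other changes the cause was not tested.

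The ratio of miR-205 to the miR-200 family on D16 was -1.86 with summed sequences and -2.73 with the miR-183 cluster, both no longer called, and -2.82 to -1.75 leaving out 1 library, which ended the call in 8 of 10 cases. On D12 it turned to -0.29 with summed sequences (-0.15 to 0.92). The ratio of miR-203a on D16 was -0.36 with the miR-183 cluster (-0.13 to 0.27). Among 48 differences of single sequences, which leave out the results that answer a comparison and so the lost call of canonical miR-205 given above, 39 of 1217 values passed that had not, none was lost and 10 turned, all of miR-203a and all without libraries of D12. On PD16 vs. PD12 without the libraries that stand apart these were 0.53 (3' DEL 1), 0.00282 (canonical), 0.0469 (3' ADD 1 (A)), 0.0692 (3' ADD 1 (C)), 0.45 (5' DEL 1, 3' DEL 1) and 0.56 (5' DEL 1, 3' ADD 1 (C)). Canonical miR-203a turned to 0.57 on CD16 vs. CD12 and the 5' DEL 1, 3' ADD 1 (C) form to 0.79 on CD20 vs. CD12, both without CD12 replicate 1 alone as well, with -1.65 to 0.57 and -2.05 to 0.79 over the fits leaving out 1 library.

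With 4 to 6 animals a group and a median of 40.5 miR-205 reads per library, single-read differences weigh heavily in PD20, where canonical miR-205 had 0 to 3 reads.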

Other observations

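Among miR-205 reads that run past the canonical 3' end, T followed in 64.0% of 2608 reads, A in 23.9% and C in 12.0%. The form with A, which is not among the annotated sequences, averaged 1.69 ± 1.4999 normalized reads in PD20 (n = 6) and 14.5 ± 2.89 in CD20 (n = 5), and the form with C 0.537 ± 0.506 and 6.94 ± 2.43. Among miR-203b reads of that kind T followed in 62.6% of 1423, and the T form, with 774 reads the second of its kind in abundance, was not on the list either. Within miR-205, the canonical sequence made up 6 of 86 reads in PD20, which is 6.98% (95% Wilson interval 3.24 to 14.4, counting error only). In CD20 it made up 150 of 622, which is 24.1% (20.9 to 27.6). These reads are pooled over animals, with 0 to 3 canonical reads per PD20 library, so the intervals leave out differences between animals. The intervals of CD12 (8.65 to 18.7) and PD16 (9.44 to 20.3) overlapped that of PD20. Those of PD12 (15.8 to 24.5) and CD16 (17.9 to 23.6) did not. Canonical miR-205 is on the list only through CD16 and CD20, so its higher share in CD20 is a description.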
